A study of Rattus norvegicus with 13 samples.

Results

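Genes that set up and maintain the identity of midbrain dopamine neurons were followed on Illumina RatRef-12 arrays of the SN/VTA (substantia nigra with the ventral tegmental area) of the rat, the ventral midbrain region that holds most of the brain's dopamine neurons. Of 9 genes listed for this role (Nr4a2, Pitx3, En1, En2, Foxa1, Foxa2, Lmx1b, Otx2 and Aldh1a1), 7 had a probe carrying their symbol, out of 13337 genes named on the array, and 5 of the 7 gave enough signal to be tested (Nr4a2, Pitx3, Foxa2, Otx2 and Aldh1a1). En1 and Lmx1b had no probe with their symbol and were not analysed here. Male Sprague-Dawley rats, 8 weeks old by the labels, received METH (methamphetamine, a stimulant that releases dopamine and serotonin) in escalating intraperitoneal doses or saline for 3 weeks. After a gap of 72 h they were given 8 injections, 1 h apart, of METH at 5 mg/kg or of saline, and were killed 24 h later. The 4 groups were METH then METH (MM, 3 arrays), METH then saline (MS, 4 arrays), saline then METH (SM, 3 arrays) and saline then saline (SS, 3 arrays). The study asked whether pretreatment that protects against METH toxicity alters the response of the ventral midbrain to the challenge. Tissue came from 1 side of the brain and was not sorted, so that in such bulk RNA fewer cells of a type and less RNA per cell cannot be told apart. Each array was taken as 1 animal, as the labels' replicate numbers imply but do not state, and p-values measure the spread between these arrays.

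Midbrain dopamine neurons arise from the floor plate, where the forkhead factors Foxa1 and Foxa2 and the LIM homeodomain factor Lmx1b act in progenitors and where Otx2 sets the midbrain territory. As the cells mature, the nuclear receptor Nr4a2 (Nurr1) and the homeodomain factor Pitx3 drive genes for dopamine synthesis and transport, among them Th, Slc6a3 and Slc18a2, and the engrailed factors En1 and En2 help the neurons survive. Aldh1a1, a retinaldehyde dehydrogenase and a target of Pitx3, marks a ventral tier of nigral neurons and part of the VTA, and in the mouse Otx2 persists in a subset of VTA neurons.

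The deposited values were ratios, for brighter probes to the probe's own level over the arrays and for dim probes to a fixed value. From these ratios the signals in units were recovered. A value at the lower limit of the deposited ratios is written here as 0 units, and it does not show that a transcript is absent: the probe of Ddc, the enzyme that makes dopamine from its precursor, was at that limit on all 13 arrays. The label of the tissue was checked against dopamine neuron markers, and Th (tyrosine hydroxylase, the rate-limiting enzyme of dopamine synthesis), Slc6a3 (the dopamine transporter) and Slc18a2 (the vesicular monoamine transporter) were detected, but not evenly. Th ranged between 201.2 units in SS replicate 4 and 2813 units in MS replicate 2, a ratio of 14.0. Slc6a3 was at the limit in MS replicate 3 and at 2187 units in MS replicate 2. Markers of serotonin neurons, which lie in the neighbouring raphe, were low in 3 arrays: Tph2 gave 702.2 and 674.4 units in MS replicates 3 and 4 and 752.9 units in SS replicate 4, against at least 1727 units on the other 10. MS replicate 3 also had 29.6 units of Pcp2, a Purkinje cell gene, which gave at most 3.8 units elsewhere. The other listed cerebellar markers were mixed. Neurod1 was highest in an MS array (35.9 units), but Zic1 (45.2 units) and Calb1 (1595 units) were highest in MM arrays. Gabra6 gave at most 0.1 units on any array. Several results for the tested genes are also given without these 3 arrays. Group differences of Th, Slc6a3, Cck, Tph2 and the other listed genes are given over all 13 arrays only, and their dependence on these 3 was not tested. The part of tissue makeup in the results was not tested either.

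In no comparison was any of the 5 tested genes called at the study's criterion, a change of 1.7-fold or more with an unadjusted p under 0.05 (limma). The count was 0 of 5 in MS against SS, where 1.13% of the 17140 tested probes were called, 0 of 5 in SM against SS (1.62% of probes), 0 of 5 in MM against MS (1.32%) and 0 of 5 in MM against SM (1.55%). For the effect of the challenge after METH minus its effect after saline it was also 0 of 5, beside 1.66% of probes. Against backgrounds this low, 0 of 5 is no result about these genes as a set. None of them had an unadjusted p under 0.05 in limma either, beside 449 to 753 of the 17140 probes, depending on the comparison. The lowest p adjusted by the Benjamini-Hochberg method in limma was 0.999 among these genes. The groups overlapped in each of the 20 pairings of gene and comparison. How often groups overlap over all probes was not computed, so that count is no result about these genes. The genes differed in how tightly they were measured, and each is taken in turn.

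**Figure D1:**
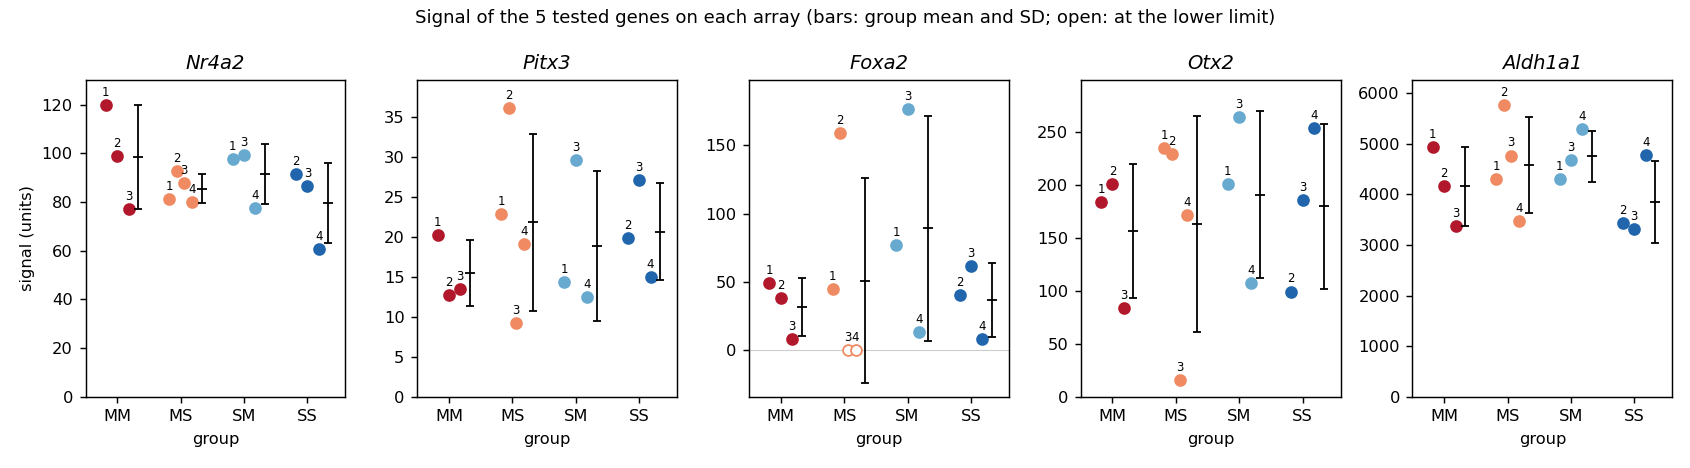
Signal in units (vertical axis, a separate linear scale for each gene) of Nr4a2, Pitx3, Foxa2, Otx2 and Aldh1a1 on each of the 13 arrays, by group; numbers beside points are replicate numbers, bars are the mean and SD of the group, and open points lie at the lower limit of the deposited values. Groups overlapped for each gene, and Foxa2 spanned 0 units in MS replicates 3 and 4 to 176.7 units in SM replicate 3.

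Nr4a2, the nuclear receptor that dopamine neurons need to form and to keep their transmitter genes on, had 119.7, 99.1 and 77.0 units in MM rats, 81.2, 92.6, 88.0 and 80.2 units in MS rats, 97.9, 99.5 and 77.5 units in SM rats and 91.6, 86.7 and 60.8 units in SS rats. The highest value was in MM replicate 1 and the lowest in SS replicate 4, and every pair of groups overlapped. Group means were 98.6 ± 21.3 units in MM rats (SD, n = 3), 85.5 ± 5.89 units in MS rats (SD, n = 4), 91.6 ± 12.2 units in SM rats (SD, n = 3) and 79.7 ± 16.6 units in SS rats (SD, n = 3). In the order of these means, MM, SM, MS and SS, no neighbours differed by more than the larger of their SDs. On the log2 scale Nr4a2 was higher by 0.14 in MS than in SS (SE 0.16), by 0.16 in SM than in SS (SE 0.17), by 0.10 in MM than in MS (SE 0.16) and by 0.08 in MM than in SM (SE 0.17). The 95% confidence intervals of these 4 differences lay between -0.29 and 0.53, inside 1.7-fold (0.77 on the log2 scale) in either direction. The challenge effect after METH minus that after saline was -0.06 (SE 0.24).

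Aldh1a1, the retinaldehyde dehydrogenase of ventral nigral neurons, had 4938, 4164 and 3370 units in MM rats, 4300, 5771, 4766 and 3479 units in MS rats, 4300, 4668 and 5290 units in SM rats and 3441, 3316 and 4783 units in SS rats. Both groups with a single METH phase had the higher means, 4579 ± 956 units in MS rats (SD, n = 4) and 4753 ± 500.3 units in SM rats (SD, n = 3), against 3847 ± 813 units in SS rats (SD, n = 3). In MM rats the mean was 4157 ± 784 units (SD, n = 3). The log2 difference was 0.27 for MS against SS (SE 0.17) and 0.26 for SM against SS (SE 0.19), while MM was lower than MS by a difference of -0.22 (SE 0.17) and lower than SM by -0.21 (SE 0.19). SS replicate 4 lay above 2 of the 3 SM values, and intervals over these 4 comparisons ran from -0.62 to 0.67, again inside 1.7-fold. The challenge effect after METH minus that after saline was -0.48 on the log2 scale (SE 0.25, adjusted p = 1 over all probes in limma), with a 95% interval of -1.04 to 0.08. Its sign was the same whichever of the 13 arrays was left out (-0.67 to -0.37).

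Pitx3, the homeodomain factor on which nigral dopamine neurons depend most, gave a dim signal of 20.3, 12.7 and 13.5 units in MM rats, 22.9, 36.1, 9.2 and 19.1 units in MS rats, 14.4, 29.7 and 12.5 units in SM rats and 19.9, 27.1 and 15.0 units in SS rats. Each group held low and high arrays, and MM values lay wholly inside the range of the MS values. Means were 15.5 ± 4.17 units in MM rats (SD, n = 3), 21.8 ± 11.1 units in MS rats (SD, n = 4), 18.9 ± 9.44 units in SM rats (SD, n = 3) and 20.7 ± 6.11 units in SS rats (SD, n = 3), so that neighbouring means differed by less than the SD. The log2 difference was -0.02 for MS against SS (SE 0.41), -0.26 for SM against SS (SE 0.43), -0.46 for MM against MS (SE 0.41, limma's adjusted p = 0.999) and -0.22 for MM against SM (SE 0.43). MM against MS turned on a single array. Without MS replicate 3, the array with 9.2 units, Pitx3 met the criterion at -0.80 (SE 0.34, limma's adjusted p = 0.964). Leaving out all 3 arrays with low serotonin markers gave -0.90 (limma's adjusted p = 0.617), with 2 MS arrays remaining, but on recovered signals plus 16 units, which damps ratios between dim values, the same 10 arrays gave -0.53 and no call.

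**Figure D2:**
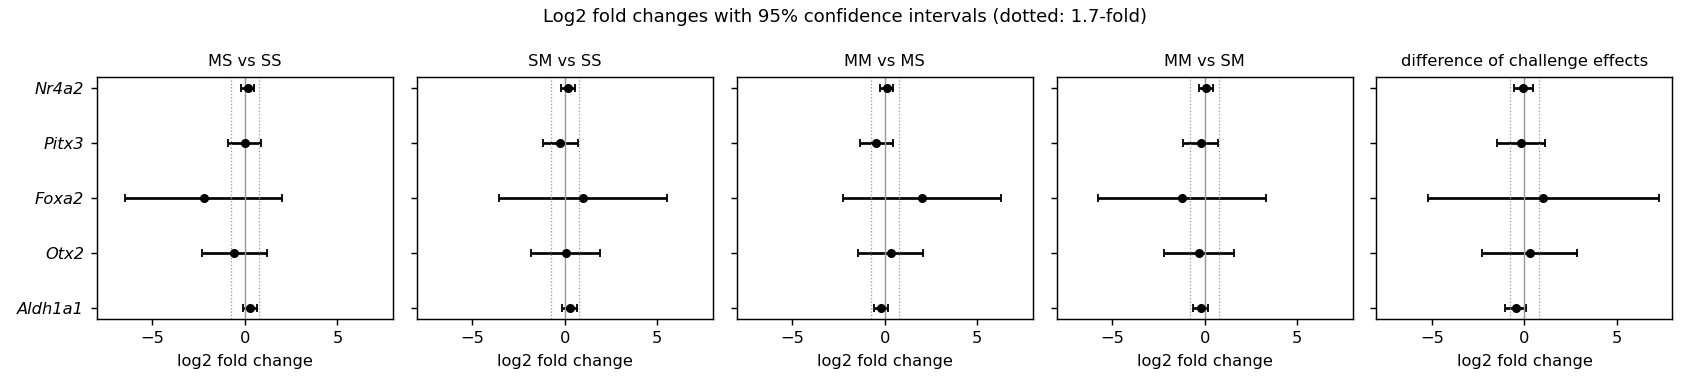
Log2 fold changes (horizontal axis) of the 5 tested genes in the 5 comparisons, with 95% confidence intervals from limma over 13 arrays; dotted lines mark 1.7-fold. Every interval crosses 0. In the first 4 comparisons those of Nr4a2 and Aldh1a1 stay inside 1.7-fold, and those of Foxa2 reach -6.49 and 6.27. In the difference of challenge effects that of Foxa2 reaches 7.25.

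Foxa2, the forkhead factor of the floor plate that stays on in adult dopamine neurons, varied most. It had 49.1, 38.1 and 7.8 units in MM rats, 44.7, 158.8, 0 and 0 units in MS rats, 77.0, 176.7 and 13.5 units in SM rats and 40.4, 61.5 and 8.3 units in SS rats. The lowest arrays, at or below 13.5 units, were MM replicate 3, MS replicates 3 and 4, SM replicate 4 and SS replicate 4, so each of the 4 groups had at least 1 of them. A second Foxa2 probe was at the limit on all 13 arrays and gave no level. Group means were 31.7 ± 21.4 units in MM rats (SD, n = 3), 50.9 ± 75.0 units in MS rats (SD, n = 4), 89.1 ± 82.3 units in SM rats (SD, n = 3) and 36.7 ± 26.8 units in SS rats (SD, n = 3). The log2 differences were -2.24 for MS against SS (SE 1.95), 0.99 for SM against SS (SE 2.08), 2.01 for MM against MS (SE 1.95) and -1.22 for MM against SM (SE 2.08), with the 2 MS arrays at the limit set to the floor. Without the 3 arrays with low serotonin markers the sign turned in MS against SS (0.68) and in MM against MS (-1.75), and these data hold no direction for Foxa2 in either comparison.

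Foxa2 followed the level of the dopamine markers on the same array. Over the 13 arrays its log2 value correlated with the mean of Th, Slc6a3 and Slc18a2 at Pearson's r = 0.86 (permutation p = 0.00017, adjusted p = 0.0153 over 90 relations) and Spearman's rho = 0.94 (permutation p = 2e-05, adjusted p = 9e-04). The 2 arrays at the top of Foxa2, SM replicate 3 and MS replicate 2, were also the top 2 for Th (2277 and 2813 units) and for Slc6a3 (2137 and 2187 units). Without the 2 arrays farthest from the median of the markers (MS replicate 3 and SS replicate 4), r was 0.81, and among the 11 arrays with Foxa2 above the limit it was 0.89. Deviations from the group means gave 0.88, arrays with replicate numbers 1 and 2 gave 0.87 (n = 6) and those with numbers 3 and 4 gave 0.86 (n = 7), while the 10 arrays without the low serotonin markers gave 0.86. Taken singly, rho was 0.83 with Th (adjusted permutation p = 0.0258), 0.92 with Slc6a3 (adjusted permutation p = 9e-04) and 0.75 with Slc18a2 (adjusted permutation p = 0.0812). On the 10 arrays r was 0.74 with Th, 0.89 with Slc6a3 and 0.49 with Slc18a2. The r with Slc18a2 was 0.76 over all 13, 0.24 within numbers 1 and 2 and 0.70 within numbers 3 and 4. Slc18a2 was lowest in SS replicate 4 (116.3 units) and MS replicate 3 (165.7 units), both among the arrays with low serotonin markers. Foxa2 also correlated with the serotonin markers over all 13 arrays (r = 0.82, adjusted permutation p = 0.0481, rho 0.52 with adjusted p = 0.352). That r was 0.81 for deviations from the group means, 0.39 within numbers 1 and 2 and 0.79 within numbers 3 and 4. It was 0.44 without MS replicates 3 and 4 and 0.00 on the 10 arrays. These markers fall into separate clusters of 3 and 10 arrays. The 3 were left out for their low serotonin markers, which narrows the range, so the 0.00 cannot decide the relation. With the microglia markers r was 0.72 (permutation p = 0.00484, adjusted p = 0.0643), 0.73 for deviations from the group means, 0.78 within numbers 1 and 2 and 0.70 within numbers 3 and 4, but 0.43 without MS replicates 2 and 3 and 0.24 on the 10 arrays. The part of either cell type in the values of Foxa2 was not tested.

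Pitx3 moved with the dopamine markers less tightly. Its r with their mean was 0.72 (permutation p = 0.00563, adjusted p = 0.0643) and rho 0.64 (permutation p = 0.0212, adjusted p = 0.238), which missed the threshold after adjustment. Taken singly, r was 0.72 with Slc6a3 (adjusted permutation p = 0.0481, rho 0.68 with adjusted p = 0.175), 0.64 with Th (adjusted permutation p = 0.118) and 0.37 with Slc18a2 (adjusted permutation p = 0.562). With the marker mean r was 0.63 without MS replicate 3 and SS replicate 4, within replicate numbers 1 and 2 it was 0.72 (n = 6), within numbers 3 and 4 it was 0.78 (n = 7), for deviations from the group means it was 0.90 and on the 10 arrays it was 0.80. Pitx3 and Foxa2 correlated with each other at r = 0.51 over all 13 arrays (permutation p = 0.0768), and at 0.72 over the 11 arrays with Foxa2 above the limit. For Nr4a2 r with the marker mean was 0.31, and 0.41 on the 10 arrays and 0.55 on recovered signals plus 16 units. Its r with the endothelial markers was -0.71 (permutation p = 0.00796, adjusted p = 0.0657), -0.45 on the 10 arrays and -0.18 on signals plus 16 units. With the GABA neuron markers it was 0.61 (permutation p = 0.0276, adjusted p = 0.141). That r was 0.60 on the 10 arrays and 0.70 on signals plus 16 units, but 0.28 within numbers 1 and 2. For Aldh1a1 the r with the dopamine marker mean depended on the arrays. It was -0.03 over all 13, 0.59 on the 10 arrays, 0.54 without MS replicate 3 and SS replicate 4, 0.97 within the 6 arrays numbered 1 and 2 and -0.36 within the 7 numbered 3 and 4. Of the 90 relations, 5 had an adjusted permutation p under 0.05 by r and 4 by rho.

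**Figure D3:**
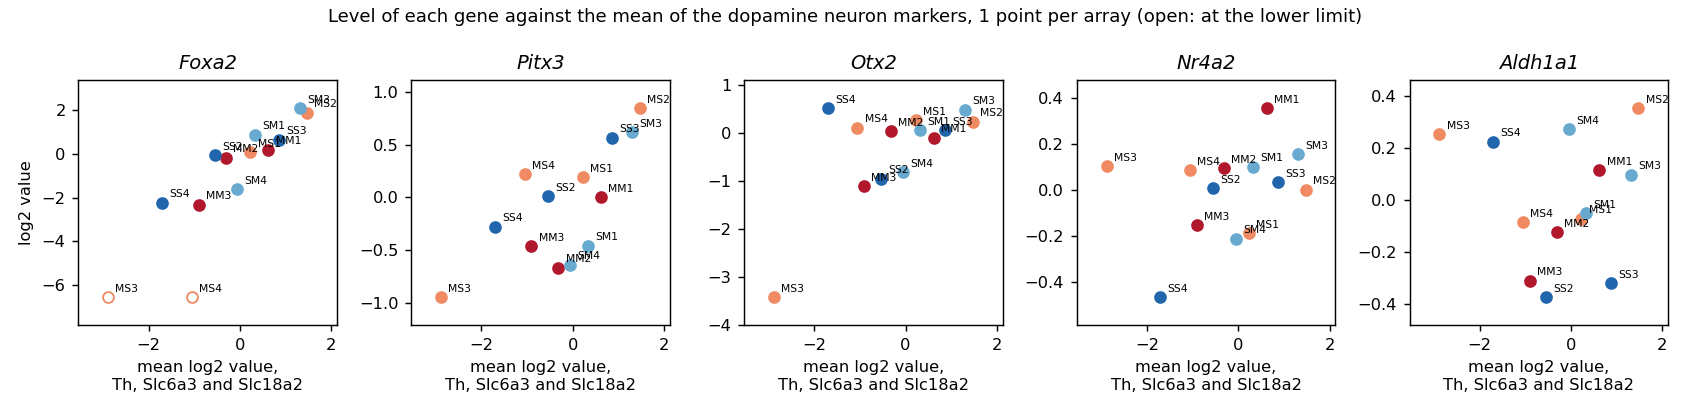
Log2 value of each tested gene (vertical axis, separate scales) against the mean log2 value of Th, Slc6a3 and Slc18a2 (horizontal axis), with 1 labelled point per array and open points at the lower limit. Foxa2 climbs with the markers (r = 0.86), Pitx3 less tightly (r = 0.72), and Nr4a2 (r = 0.31) and Aldh1a1 (r = -0.03) least; the low Otx2 point is MS replicate 3.

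Since Foxa2 and the dopamine markers varied together, the RefSeq promoters (GRCr8, 250 bases before and 50 after the annotated start) of Foxa2, Th, Slc6a3 and Slc18a2 are printed 5′ to 3′, at chr3:155927459-155927758, minus strand, at chr1:207508169-207508468, minus strand, at chr1:31578913-31579212, minus strand and at chr1:268399771-268400070, plus strand, with motif matches in capitals. A window was given for 7 of the 9 genes, all but Foxa1 and Otx2. Both strands were searched for AAAGGTCA (the NR4A monomer element), TGTTTAC (forkhead core), TAATCC (the core of bicoid type homeodomain factors such as Pitx3 and Otx2) and TGACGTCA (the cAMP response element, its own reverse complement). The last was added after the windows had been read.
Foxa2: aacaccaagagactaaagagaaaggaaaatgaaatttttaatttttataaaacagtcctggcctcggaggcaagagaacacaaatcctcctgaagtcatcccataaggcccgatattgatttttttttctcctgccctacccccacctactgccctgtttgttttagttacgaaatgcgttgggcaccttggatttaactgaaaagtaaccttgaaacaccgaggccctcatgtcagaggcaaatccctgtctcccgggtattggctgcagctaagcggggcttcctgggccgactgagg
Th: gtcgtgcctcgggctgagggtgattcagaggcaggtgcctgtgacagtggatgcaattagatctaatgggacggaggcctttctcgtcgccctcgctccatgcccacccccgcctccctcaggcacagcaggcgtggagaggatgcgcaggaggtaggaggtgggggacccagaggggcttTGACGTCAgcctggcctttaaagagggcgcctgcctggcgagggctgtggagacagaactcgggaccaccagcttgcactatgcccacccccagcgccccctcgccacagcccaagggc
Slc6a3: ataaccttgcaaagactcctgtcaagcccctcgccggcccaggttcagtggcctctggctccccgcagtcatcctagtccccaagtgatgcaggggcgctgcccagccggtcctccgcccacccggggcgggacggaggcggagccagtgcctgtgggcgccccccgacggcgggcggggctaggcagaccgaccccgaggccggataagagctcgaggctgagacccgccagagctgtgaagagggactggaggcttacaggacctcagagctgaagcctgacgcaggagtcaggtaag
Slc18a2: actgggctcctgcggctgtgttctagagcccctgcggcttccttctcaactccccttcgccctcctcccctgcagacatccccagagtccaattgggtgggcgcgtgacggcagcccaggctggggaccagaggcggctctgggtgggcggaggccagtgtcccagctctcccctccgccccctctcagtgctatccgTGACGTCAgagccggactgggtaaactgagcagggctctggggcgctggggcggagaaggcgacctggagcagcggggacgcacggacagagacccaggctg
None of the 4 motifs was found in the windows of Foxa2, Slc6a3, Pitx3, Nr4a2 or Aldh1a1. The capitals in Th and Slc18a2 are the cAMP response element, starting at positions -69 and -52 from the start site. It is present in 1.83% of 33469 rat promoter windows, against 1.43% for the NR4A element, 3.78% for the forkhead core and 7.17% for the bicoid type core. En1 held the bicoid type core once, at position -143. These matches describe the letters of the windows only.

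Otx2, which sets the midbrain territory in the embryo and persists in VTA neurons of the adult mouse, had 184.5, 201.5 and 83.9 units in MM rats, 235.6, 229.7, 16.2 and 172.0 units in MS rats, 201.1, 264.6 and 107.8 units in SM rats and 99.5, 185.9 and 254.3 units in SS rats. MS replicate 3 stood far below all others, and the range of each other group overlapped those of the rest. SS replicate 4, low for Th, Slc18a2 and Foxa2, was the second highest for Otx2. Means were 157 ± 63.6 units in MM rats (SD, n = 3), 163 ± 102 units in MS rats (SD, n = 4), 191 ± 78.9 units in SM rats (SD, n = 3) and 180 ± 77.6 units in SS rats (SD, n = 3), with no neighbours apart by more than their SD. The log2 difference was -0.58 for MS against SS (SE 0.80) and 0.33 without MS replicate 3, and 0.31 for MM against MS (SE 0.80) and -0.59 without that array. For SM against SS it was 0.04 (SE 0.86), and for MM against SM -0.30 (SE 0.86). Otx2 followed the thalamic and subthalamic markers by rank (rho = 0.80, adjusted permutation p = 0.0317) but less so by value (r = 0.60, adjusted permutation p = 0.141). With the mean of the dopamine markers r was 0.67 (permutation p = 0.0147, adjusted p = 0.109) and rho 0.36, and r ran from 0.61 to 0.80 over the other subsets of arrays and on signals plus 16 units. With Slc6a3 alone r was 0.87 (adjusted permutation p = 0.0481) and rho 0.52 (adjusted permutation p = 0.352). That r was 0.88 for deviations from the group means, 0.76 within numbers 1 and 2, 0.88 within numbers 3 and 4 and 0.88 on the 10 arrays, but 0.46 without MS replicate 3 and SM replicate 3. With the cerebellar markers r was -0.77 over all arrays, -0.50 on the 10 arrays and -0.11 without the 2 arrays farthest from their median.

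**Figure D4:**
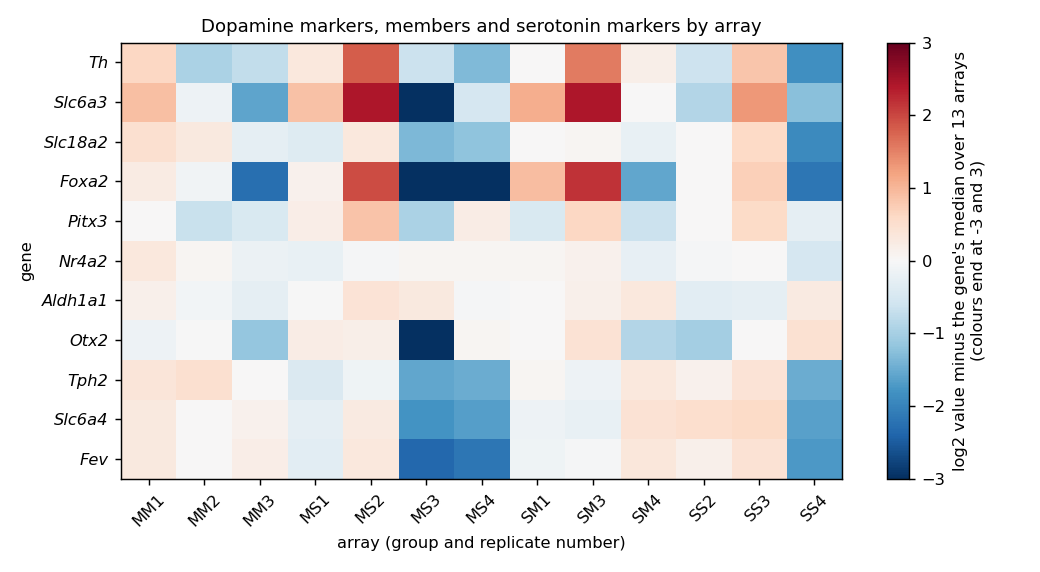
Log2 value of each gene (rows) on each array (columns, by group and replicate number) minus the median of that gene over the 13 arrays; red is above and blue below the median, and colours end at -3 and 3. Th, Slc6a3 and Foxa2 are high together in MS replicate 2 and SM replicate 3, while Tph2, Slc6a4 and Fev are low in MS replicates 3 and 4 and SS replicate 4.

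The last 2 genes were near or at the limit. En2, an engrailed homeodomain factor, was above it only in MS replicate 2, at 0.7 units. Foxa1, the second forkhead factor of the floor plate, was at the limit on all 13 arrays. Lmx1a, a partner of Lmx1b in dopamine progenitors, was likewise at the limit throughout. No difference between groups could be detected for these probes.

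The spread between arrays of a group set what could be seen. The SD within groups on the log2 scale was 0.22 for Nr4a2 and 0.24 for Aldh1a1, larger than that of 50% and 55.3% of 13800 probes that averaged over 10 units and never fell to the limit. It was 0.60 for Pitx3 (92.8%), 1.19 for Otx2 (99.2%) and 2.86 for Foxa2, whose 2 arrays at the limit enter at the floor. In units, the SD of Foxa2 within groups was 60.3, against a median of 9.09 over 1190 probes of like mean signal (at most 20% below or 25% above its own), and 99.7% of those had a smaller SD. For Otx2 it was 84.3 units against a median of 25.1 over 1016 such probes, and for Pitx3 8.55 units against 5.46 over 1459 probes. Aldh1a1 was average on the log2 scale but had 803 units against a median of 391 over 248 probes of like signal. Nr4a2, at 14.4 units against 14.2 over 1004 probes, was as variable as its peers.

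**Figure D5:**
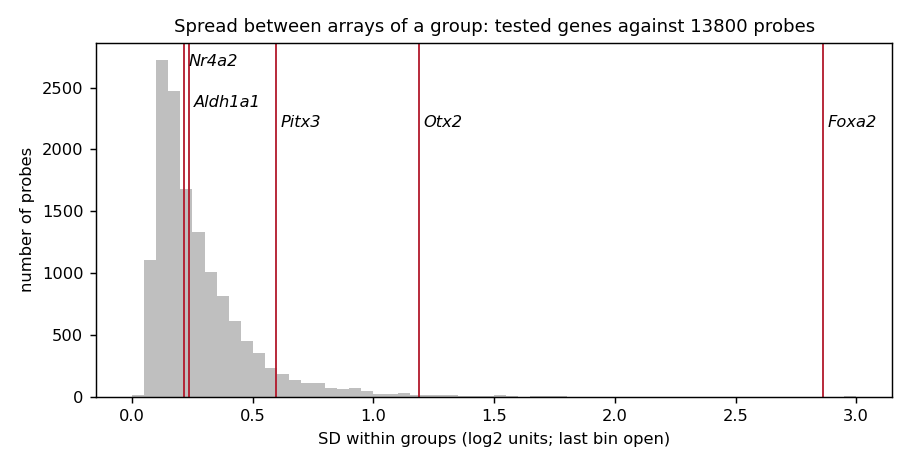
Number of probes (vertical axis) by SD between arrays within groups in log2 units (horizontal axis, last bin open) for 13800 probes that averaged over 10 units and never fell to the limit; red lines mark the 5 tested genes. Nr4a2 (0.22) and Aldh1a1 (0.24) sit in the bulk, Pitx3 (0.60) in the upper tail, and Otx2 (1.19) and Foxa2 (2.86) beyond nearly all probes.

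Genes whose profile over the 13 arrays was most like that of a factor were looked for among 9823 named probes that never fell to the limit, as a description with no test. For Otx2 these were Emx2, a forebrain homeodomain gene (r = 0.97, 24.6 to 188 units), Asic4, an acid-sensing ion channel subunit (r = 0.95), and Fcna (r = 0.92). Otx2 gave 16.2 units in MS replicate 3 and at least 83.9 units elsewhere. These r were not computed without that array, and how far they rest on it was not tested. The 3 nearest to Nr4a2 were Cdkn3 (r = 0.86), Nsl1 (r = 0.78) and Sertad3 (r = 0.77), those nearest to Pitx3 were Stn1 (r = 0.86), Tgfbr3 (r = 0.85) and Tcf20 (r = 0.82), and those nearest to Aldh1a1 were Pcdh12 (r = 0.85), Traip (r = 0.85) and Gabrr3 (r = 0.81). Of these 4 genes, none was among the 3 nearest of another; Foxa2, at the limit on 2 arrays, could not enter this search. All share the 13 arrays and their scaling.

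Genes that the factors act on were followed in the same way. Of 20 listed dopamine neuron genes downstream of these factors, 15 had a probe and 14 were tested, and 0 of 14 were called in any of the 5 comparisons, beside the 1.13% to 1.66% of all probes, a background so low that 0 of 14 is no result about the list. The median log2 difference of the 14 was -0.04 in MS against SS, where that of all probes was 0.02, 0.21 in SM against SS (all probes 0.01), 0.11 in MM against MS (all probes -0.01) and -0.05 in MM against SM (all probes 0.00). Of the 14, 5 were higher in MS than in SS, 12 in SM than in SS, 9 in MM than in MS and 6 in MM than in SM. The matching shares over all probes were not computed. The 14 genes were read on the same arrays, so these counts are a description only. Th had a log2 difference of 1.12 in SM against SS (SE 0.83), 0.58 in MS against SS (SE 0.78), -0.39 in MM against MS (SE 0.78) and -0.94 in MM against SM (SE 0.83). Slc6a3 gave 1.45 in SM against SS (SE 1.78) and -1.45 in MM against SM (SE 1.78), and none of these passed. The 2 brightest genes of the list were Cck, a neuropeptide of VTA neurons, at 727.7 to 4258 units, and Sncg, a synuclein, at 855.4 to 1836 units with log2 differences of 0.21 in MS against SS (SE 0.19) and 0.20 in SM against SS (SE 0.21). A steadier gene on the list was Drd2, the dopamine D2 autoreceptor, at 203.7 to 316.8 units. Ret, the receptor of the GDNF family and a target of Nr4a2, ranged from 114.2 to 296.3 units.

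Of 21 other transcription factors and signals of dopamine neuron development and upkeep, 15 had a probe, 14 were tested and 0 were called in any comparison, again beside 1.13% to 1.66% of all probes. Their median log2 difference was 0.06 for MS against SS, -0.16 for SM against SS, -0.01 for MM against MS and 0.10 in MM against SM. Nr4a1, a relative of Nr4a2 that neuronal activity and dopamine drugs induce, stayed between 24.2 and 40.3 units, with log2 differences of -0.10 in MS against SS (SE 0.20), -0.30 in SM against SS (SE 0.22), -0.13 in MM against MS (SE 0.20) and 0.07 in MM against SM (SE 0.22). Pbx3, a homeodomain partner factor, ranged from 3936 to 7540 units with its top value in SS replicate 2, and differed by -0.34 in SM against SS (SE 0.16). Satb1, a chromatin organizer and the second brightest of this list, had 483.1 to 716.1 units and log2 differences between -0.11 (SM against SS, SE 0.12) and 0.16 (MM against SM, SE 0.12). Ldb1, the cofactor of LIM homeodomain proteins, differed by -0.29 in MM against MS (SE 0.09, limma's adjusted p = 0.999), short of 1.7-fold.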

How the data were processed

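Illumina RatRef-12 arrays of 22523 probes were hybridized with RNA from the SN/VTA, 13 arrays in all. Signals were read by the authors with BeadStudio and normalized globally with GeneSpring. What they deposited is, for every probe and array, a ratio never under 0.01. For brighter probes it was a ratio to the median of that probe, and 8630 dim probes were taken as divided by a fixed 10 units. The labels' amplification step speaks of striatal samples, whereas tissue and titles name the SN/VTA. The number of arrays limits the precision.

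Signals in units were recovered from the whole multiples of the step of each array (tolerance 0.02), with values at the limit (28.2% of all) taken as 0. For the tests, each array's ratios were scaled by its median, a floor was set at 0.0107 (their 25th percentile), and log2 was taken. The 17140 probes that exceeded this floor on 3 arrays or more entered a fit of group means with limma 3.58.1 under R 4.3.3. The prior variance followed each probe's mean log2 value. For brighter probes, given as ratios to their own median, this mean does not track brightness. P-values were adjusted over all 17140 probes by the Benjamini-Hochberg method. The script was tested on simulated data. Correlations used 100000 permutations. Symbols came from the platform's annotation, as 13793 probes carry 1 symbol, and the probe with the highest mean was used. The array's build is not given in the sources used here.

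The genes and lists were chosen with earlier results of these data known. All members with a probe are named, as are the 3 genes most alike each, the members of the lists that were called, the 2 brightest of each list, and Th, Slc6a3, Slc18a2, Ddc, Tph2, Slc6a4 and Ttr; Pcp2, Fev, Drd2, Ret, Lmx1a, Nr4a1 and Ldb1 were added after their values were seen. Alternatives comprised other scalings, floors and filters, blocks for the replicate number or its set (1 and 2 against 3 and 4), comparisons within these sets, and each array left out.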

Additional observations from a re-analysis of the deposited data

Results flagged for a closer look

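Otx2 in MS replicate 3 lay far from the other 3 MS arrays on the log2 scale: the gap to its nearest neighbour was 0.956 of the whole range of the group, above Dixon's critical value for 4 samples. Chance flags about 1 in 20 groups, and 32 gaps (8 genes, each on 2 scales and on both sides) were examined in the MS group, the only one of 4 arrays; this was the 1 that passed. In units the same gap was 0.71 of the range and did not pass. MS replicate 3 had 16.2 units of Otx2, against 172.0 to 235.6 units in the other MS arrays. This array also had 0 units of Slc6a3, 0 units of Foxa2, 9.2 units of Pitx3 and 29.6 units of Pcp2. The other cerebellar markers did not all go with Pcp2. Its Nr4a2 (88.0 units) and Aldh1a1 (4766 units) lay inside the range of the other MS arrays. The part of tissue makeup in this array was not tested.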

How the results depend on the processing

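Of the 315 values of the 25 log2 differences under alternatives that keep or drop several choices, 291 kept their sign and their side of the criterion, 23 changed sign and 1 newly met it. On recovered signals plus 16 units, Pitx3 in MS against SS became 0.01 and the Foxa2 difference between challenge effects -0.66. Without SS replicate 4 and MS replicates 3 and 4, an alternative chosen after seeing the data, Nr4a2 became -0.11 for MS against SS, -0.01 for SM against SS and 0.2 for the difference between challenge effects. Pitx3 became 0.23, Foxa2 0.68 and Otx2 0.7 in MS against SS. Foxa2 became -1.75 and Otx2 -0.64 in MM against MS, and their differences between challenge effects -1.9 and -1.0. With both changes together, Nr4a2 became -0.03, Pitx3 0.19, Foxa2 0.64 and Otx2 0.7 in MS against SS, Foxa2 -1.23 and Otx2 -0.61 in MM against MS, and the difference between challenge effects 0.11 for Nr4a2, -1.52 for Foxa2 and -0.97 for Otx2. The number of genes called in MM against MS was 0 with all arrays and 1 (Pitx3, -0.9) without these 3 arrays. In the other comparisons it was 0 under each alternative that was run, with every named probe of a gene as well. Foxa2 has no value among probes above the limit on all arrays. Causes were not tested.

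With each of the 13 arrays left out in turn, 14 of the 25 differences changed sign at least once and 11 never did, and the count in MM against MS ran from 0 to 1. The log2 difference of Nr4a2 ran from -0.02 to 0.23 for MS against SS, -0.01 to 0.27 for SM against SS, -0.03 to 0.22 for MM against MS, -0.04 to 0.21 for MM against SM and -0.19 to 0.1 for the difference between challenge effects. That of Pitx3 ran from -0.28 to 0.32 in MS against SS, -0.46 to 0.17 in MM against SM and -0.54 to 0.19 for the difference between challenge effects. Otx2 ran from -0.99 to 0.33 for MS against SS, -0.38 to 0.4 for SM against SS, -0.59 to 0.67 in MM against MS, -0.66 to 0.06 in MM against SM and -0.63 to 0.69 for the difference between challenge effects, and Foxa2 from -0.24 to 2.58 for that difference.

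Same-numbered arrays carry the same replicate number in their titles, and whether they share more is not known. In their deviations from the group means, 4 of 15 same-numbered pairs of arrays correlated over 0.1. Their median correlation was 0.0581, against 0.0392 for other pairs of arrays within a set of replicate numbers and -0.045 for pairs of different sets, all between groups. With the replicate block, 0 genes were called in each comparison, Otx2 in SM against SS became -0.07 and the Foxa2 difference between challenge effects -0.14. Within the sets of replicate numbers, 15 of 50 values moved by 1 SD or more. The r of Pitx3 with the dopamine markers within numbers 1 and 2 was 0.72 (n = 6, exact permutation p = 0.114). That of Pitx3 with Foxa2, 0.51, became 0.72 without the 2 farthest arrays, 0.71 for deviations from group means, 0.76 on recovered signals plus 16 units, 0.75 without the 3 arrays and 0.72 with Foxa2 above the limit.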

Other observations

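Cck, the brightest gene on the list downstream of the factors, ranged widely between arrays of a group. It had 1449, 1134 and 948.2 units in MM rats, 3778, 2689, 727.7 and 1734 units in MS rats, 1538, 4258 and 1292 units in SM rats and 1035, 1424 and 2834 units in SS rats. Its lowest array, MS replicate 3, was also the lowest of Otx2, and its highest, SM replicate 3, was also the highest of Otx2. SS replicate 4 was the highest SS array for both genes, while its Th was the lowest of all 13 arrays at 201.2 units. The groups overlapped, with log2 differences of -0.79 in MM against MS (SE 0.54) and -0.82 in MM against SM (SE 0.58), neither called.

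Of 64 tested cell type markers, 2 were called in MM against MS, Tph2 and Barhl1 (3.12%, against 1.32% of all probes), and the serotonin markers had a median log2 difference of 0.50 there, with the 2 low arrays both in MS. The sum of the 8 serotonin markers ran from 5806 to 7460 units in MM rats and from 2403 to 6220 units in MS rats. In SM against SS 4 were called, all lower: Alas2, Hbb, Pf4 and Col1a1 (6.25%, against 1.62% of all probes). In MS against SS it was 1, Alas2, also lower (1.56%, against 1.13%). Hba-a2 (lower) and Zic1 (higher) were called in MM against SM (3.12%, against 1.55%), and Isl1 (negative) and Zic1 (positive) in the difference between challenge effects (3.12%, against 1.66%). Ttr, the transthyretin of the choroid plexus, gave 309.3 units in MS replicate 1 and 600.9 units in SS replicate 2, against at most 53.7 units on the other 11 arrays. By mean signal the 2 brightest markers of the other lists were Gfap and Gja1 for astrocytes, Cnp and Mbp for oligodendrocytes, Aif1 and C1qb for microglia, Cldn5 and Tek for endothelium, Gad1 and Pvalb for GABA neurons, Slc17a6 and Calb2 for thalamus, Slc18a3 and Phox2a for the red nucleus and oculomotor nucleus, Calb1 and Zic1 for cerebellum, Igf2 and Col1a2 for meninges, Hbb and Pf4 for blood, and Ttr and Slc4a5 for choroid plexus. Of these, Hbb, Pf4 and Zic1 were called in a comparison.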
